A study of Mus musculus with 3 samples.

Results

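In the branching mouse lung, Sox2 and Sox9 mark opposite ends of the epithelial tree. Sox9, an HMG-box transcription factor, is made in the growing distal tips, where it is kept on by FGF signalling together with Etv5 and where the cells that later form alveoli arise. Sox2, a related factor, is made in the proximal stalks, which form the conducting airways with their secretory, ciliated, basal and neuroendocrine cells. A cell that leaves the tip normally loses Sox9 and gains Sox2, so barcodes that hold transcripts of both genes are of interest as cells at the border between the 2 domains.

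The barcodes described here are epithelial barcodes with at least 1 UMI (a counted transcript molecule) of Sox2 and at least 1 UMI of Sox9. Epithelial barcodes were those with at least 5000 UMIs, at most 10% of them mitochondrial, at least 3 UMIs of Epcam and fewer than 10 UMIs summed over C1qa, C1qb and C1qc, which mark macrophages. There were 295 such double-positive barcodes among 6715 epithelial barcodes, out of 12967 barcodes deposited. They were set against 443 barcodes with Sox2 but no Sox9 UMI (Sox2-only), 3444 with Sox9 but no Sox2 UMI (Sox9-only) and 2533 with neither. The barcodes were chosen by their UMIs of Sox2, Sox9, Epcam and the C1q genes, so the values of these genes are given as descriptions. These genes were not taken out of the fits below, and no result is read from their tests.

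The study measured single cells of the lungs of C57/B6 embryos at E14.5 with the 10x Genomics 3′ v3 assay, after cells had been sorted for the epithelial surface protein Epcam and for the adhesion protein Icam1. Cells sorted as Epcam+ Icam+ gave 2 libraries (replicates 1 and 2), and cells sorted as Epcam+ gave 1 library. The lungs of the embryos of 2 females were pooled before dissociation, no genotype or treatment differed, and nothing in the labels ties a library to a pool of its own, so the spread between libraries may be technical. The Epcam+ library is the single one of its sort, and its gene table and software version also differed, so sort, library and processing cannot be told apart.

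The 3 libraries held 4739, 4531 and 3697 barcodes and 74170599, 67843828 and 84460347 UMIs. Values for libraries are given throughout in the order Epcam+ Icam+ replicate 1, Epcam+ Icam+ replicate 2 and Epcam+. No epithelial barcode sequence occurred in more than 1 library. Sox2 lies on chromosome 3 (34650405 to 34652461, plus strand, a single protein-coding exon) and Sox9 on chromosome 11 (112782224 to 112787760, plus strand, protein-coding) of GRCm38 (mm10), in the GENCODE vM21 annotation. Sox2 lies inside the span of the non-coding gene Sox2ot on the same strand, which is listed in the gene table of the Epcam+ Icam+ libraries and not in that of the Epcam+ library. None (0) of the annotated Sox2ot exons overlapped the Sox2 exon.

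Double-positive barcodes were 42 of 2196, 38 of 1948 and 215 of 2571 epithelial barcodes. The share was 1.91% (exact 95% binomial interval 1.38 to 2.58), 1.95% (1.38 to 2.67) and 8.36% (7.32 to 9.50), intervals that cover counting error only. Both Epcam+ Icam+ libraries lay below the Epcam+ library and were also shallower, with medians of 20697.5 and 21055.5 UMIs per epithelial barcode, against 28267 in the Epcam+ library. Genes that the choice did not use were checked for epithelial identity. Nkx2-1, the factor that specifies lung epithelium, had a UMI in 40, 37 and 214 of the double-positive barcodes. Krt8, a keratin of simple epithelia, had one in all 42, 38 and 215, and Cdh1, an epithelial cadherin, in 38, 37 and 166. The epithelial part of the label therefore holds at the level of detected transcripts. Its Sox2 and Sox9 part rests on the rule itself.

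Many of these barcodes rested on very few molecules. Exactly 1 UMI of each gene was found in 15, 8 and 37 of them, and at least 2 UMIs of each in 8, 9 and 76. The highest Sox2 count in a double-positive barcode was 12, 28 and 20 UMIs, and the highest Sox9 count 11, 9 and 15. Sox2 outnumbered Sox9 in 17, 10 and 84, Sox9 outnumbered Sox2 in 8, 13 and 76, and the 2 counts were equal in 17, 15 and 55. Just outside the rule, 46, 63 and 119 barcodes had at least 2 UMIs of Sox2 and none of Sox9, and 522, 520 and 1031 had at least 2 UMIs of Sox9 and none of Sox2.

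Macrophages served as a measure of UMIs found in cells that should lack both genes. Among barcodes with no Epcam UMI and at least 10 C1q UMIs (288, 281 and 11, median depth 21944, 23008 and 21944 UMIs), a Sox2 UMI was found in 6, 4 and 0 (2.08%, 1.42% and 0%, the last allowing up to 27.3%). A Sox9 UMI was found in 15, 12 and 1 (5.21%, 4.27% and 9.09%). Both genes were found in 0 of 288, 0 of 281 and 0 of 11, which allows shares of up to 1.04%, 1.07% and 27.3%. A barcode that holds 1 of the genes needs a stray UMI of the other alone to be counted as double-positive. At the macrophage shares, the 1038, 961 and 1740 barcodes with Sox9 would hold 21.6, 13.7 and 0 with a stray Sox2 UMI, and the 159, 158 and 421 with Sox2 would hold 8.28, 6.75 and 38.3 with a stray Sox9 UMI. The sums of 29.9, 20.4 and 38.3 stand beside 42, 38 and 215 double-positive barcodes. They rest on few macrophage UMIs, and in the Epcam+ library on 11 macrophage barcodes, where Sox2 at 0 allows up to 27.3%. Whether macrophage barcodes give the background of epithelial barcodes was not tested. Which of the double-positive barcodes express both genes cannot be told apart.

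Sox2 and Sox9 occurred in the same barcode less often than independence of the 2 genes would give at equal depth. Every epithelial barcode was thinned to 5000 UMIs by the exact chance that at least 1 UMI of a gene is kept. A Sox2 UMI then remained in 3.01%, 3.63% and 6.80% of barcodes, and a Sox9 UMI in 17.7%, 18.9% and 24.6%. Both remained in 6.73, 4.53 and 22.1 barcodes, against 11.7, 13.3 and 43.0 expected from the product of the 2 shares, which is a ratio of 0.575, 0.340 and 0.514. Cells of a library are not replicates, so no p is given, and the ratio lay below 1 in 3 of 3 libraries.

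Other pairs set the scale of that ratio. Sox2 with Scgb3a2, a secretoglobin of early airway secretory cells, gave ratios of 6.73, 7.99 and 4.61, and Sox9 with Etv5, an FGF-responsive factor of the tips, gave 1.4, 1.43 and 1.13. Across the 2 domains, Sox2 with Etv5 gave 0.191, 0.176 and 0.406, and Sox9 with Scgb3a2 gave 0.519, 0.332 and 0.615. The Sox2 and Sox9 pair thus ran with the pairs across domains, nearer to Sox9 with Scgb3a2 than to Sox2 with Etv5 in the Epcam+ Icam+ libraries.

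**Figure D1:**
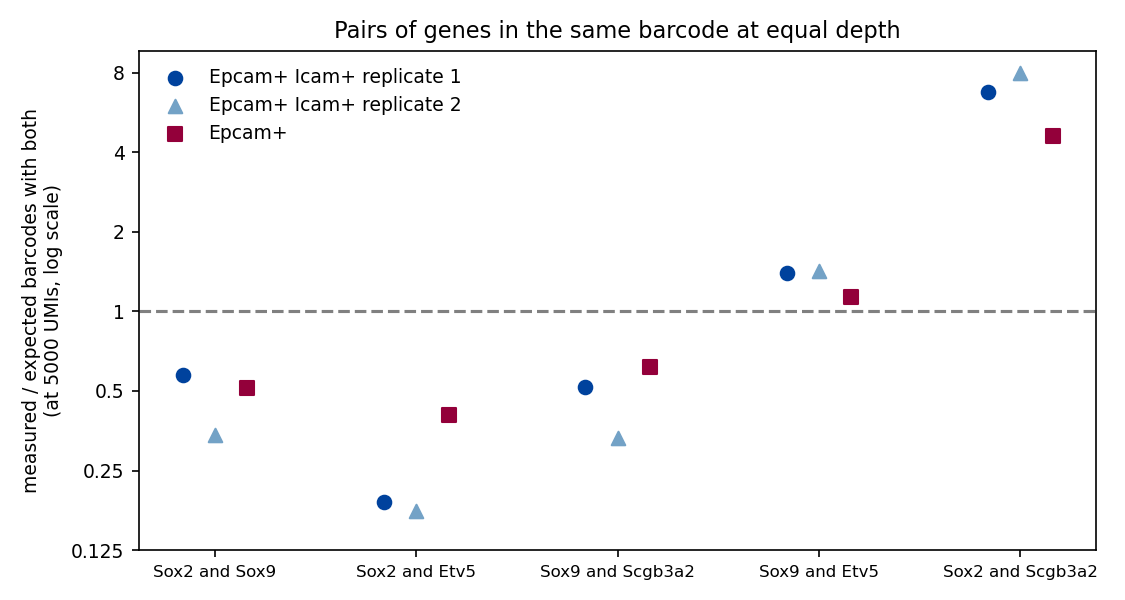
Number of epithelial barcodes with both genes of a pair, divided by the number expected if the genes were independent (log scale), after thinning to 5000 UMIs; each point is 1 library and the dashed line marks a ratio of 1. The 3 pairs across domains lie below 1 in each library (Sox2 and Sox9 at 0.575, 0.340 and 0.514), and the 2 pairs within a domain lie above it.

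Depth differed between the classes. Without thinning, and with the expectation formed within 10 bins of depth, 42, 38 and 215 barcodes were found where 74.0, 74.2 and 279 were expected, ratios of 0.568, 0.512 and 0.771. The share was highest in the deepest bins of the Epcam+ library, where the last bin (median 58968 UMIs) held 71 double-positive barcodes, 27.6% of its 257 barcodes, against 74.7 expected, a ratio of 0.950. Double-positive barcodes had a median of 23749, 26745.5 and 36766 UMIs. Sox2-only barcodes had 19599, 17961 and 20208.5, Sox9-only barcodes 23698, 24505 and 30199, and barcodes with neither gene 17970, 18783 and 22102. Of the double-positive barcodes, 21.4%, 31.6% and 33.0% belonged to the deepest 10% of their library, against 7.69%, 3.33% and 4.37% of Sox2-only and 15.5%, 16% and 11.1% of Sox9-only barcodes. Among the barcodes with the highest doublet scores were 5, 1 and 11 double-positive barcodes (11.9%, 2.63% and 5.12%), 3, 5 and 1 Sox2-only barcodes (2.56%, 4.17% and 0.485%) and 28, 31 and 90 Sox9-only barcodes (2.81%, 3.36% and 5.90%). With every barcode thinned to 5000 UMIs the share of double-positive barcodes was 0.306%, 0.233% and 0.860%, still highest in the Epcam+ library. How much of the unthinned count came with depth or with 2 cells sharing a barcode was not tested.

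**Figure D2:**
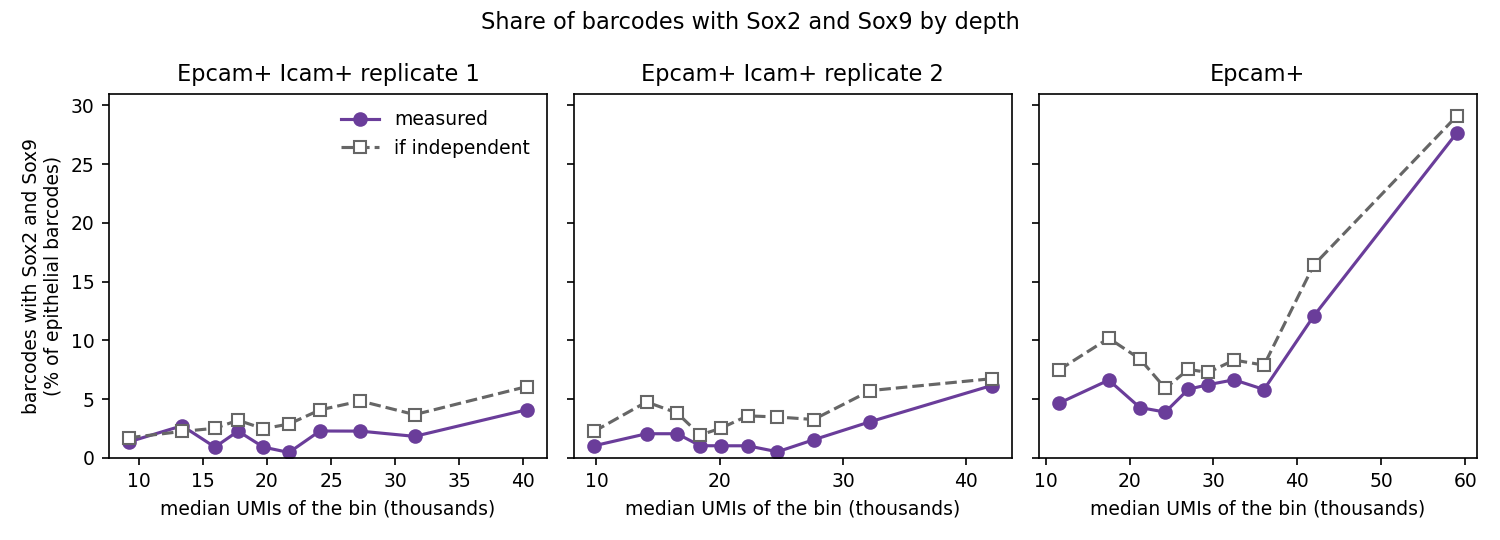
Share of epithelial barcodes with both genes (filled circles) in 10 bins of depth per library, with the share expected if Sox2 and Sox9 were independent within the bin (open squares); the x axis is the median UMI count of the bin, in units of 1000. The measured share lies below the expected one in 9 of 10, 10 of 10 and 10 of 10 bins, and the gap is narrow in the deepest bin of the Epcam+ library (71 barcodes, 74.7 expected).

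For the profile of the double-positive barcodes, UMIs were summed over the barcodes of each class in each library and compared with edgeR's quasi-likelihood test, with library as a block and Benjamini-Hochberg adjustment at 0.05 over the 11605 genes tested. Against Sox2-only, 102 genes passed (0.879%), 58 higher (0.5%) and 44 lower (0.379%). Against Sox9-only, 1394 passed (12%), 668 higher (5.76%) and 726 lower (6.26%). Sox2-only and Sox9-only differed from each other in 2772 genes (23.9%). These counts include Sox2 and Sox9 themselves. Without the deepest 10% of barcodes they were 18 against Sox2-only and 1032 against Sox9-only, and leaving out Epcam+ Icam+ replicate 1, Epcam+ Icam+ replicate 2 or the Epcam+ library gave 40, 56 and 207 against Sox2-only and 543, 651 and 1952 against Sox9-only. With classes formed after thinning every barcode to 5000 UMIs, 4 and 127 genes passed. Levels below are in CPM, the UMIs of a gene scaled to a fixed total of the class sum, and each difference is a log2 fold change. Its standard error (SE) comes from the fit and is not the spread of the difference over the 3 libraries.

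Genes of the distal tip took middle values in the class sums. Of 14 tip genes tested (Sox9 left out), 6 were higher and 0 lower than in Sox2-only barcodes, with a median log2 difference of 0.70 where all genes had -0.01. Against Sox9-only barcodes, 0 were higher and 8 lower, with a median of -0.78 where all genes had -0.02. Over all genes, 0.5% were higher than in Sox2-only and 6.26% lower than in Sox9-only barcodes. Without the deepest 10% of barcodes the count against Sox2-only was 2 higher of 14, and that against Sox9-only 9 lower of 14. After thinning, 0 and 2 of 13 passed, and without Epcam+ Icam+ replicate 1, 4 and 5 of 14. The calls over all genes, in either direction, also moved with the setting. They were 18 and 1032 of 11289 without the deepest 10% and 4 and 127 of 9593 after thinning. Without Epcam+ Icam+ replicate 1 they were 40 and 543 of 12195.

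Etv5 had 44.8, 51.2 and 110.1 CPM in double-positive barcodes, against 5.83, 11 and 56.7 CPM in Sox2-only and 109, 116 and 202 CPM in Sox9-only barcodes. In each library the double-positive value lay between the other two. The differences were 1.45 (SE 0.263, adjusted p = 0.0136) against Sox2-only and -1.24 (SE 0.217, adjusted p = 0.00146) against Sox9-only. Etv5 UMIs were also found in 34%, 31.3% and 63.6% of the macrophage barcodes, a share above that of Sox2-only barcodes in each library (12.0%, 12.5% and 48.5%). As it lay above that class, the macrophage share is not used as a background level for Etv5. Where the Etv5 UMIs of macrophage and of Sox2-only barcodes came from was not tested. The share of double-positive barcodes with Etv5 was 31%, 42.1% and 83.3%, in the first library also below the macrophage share.

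Sftpc, the surfactant protein that marks distal epithelium from early stages, had 2812, 2854 and 1862 CPM in double-positive barcodes. It had 178, 342 and 703 CPM in Sox2-only and 7513, 8058 and 2763 CPM in Sox9-only barcodes. The double-positive level was higher than in Sox2-only barcodes by 2.53 (SE 0.402, adjusted p = 0.00712) and lower than in Sox9-only barcodes by a log2 difference of -1.39 (SE 0.373, adjusted p = 0.0238). A single barcode carried 42.6% of the Sftpc UMIs of the 42 double-positive barcodes in Epcam+ Icam+ replicate 1, 19.6% in replicate 2 and 4.22% in the Epcam+ library.

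Bmp4, a morphogen of the tips, had 17.0, 26.8 and 45.5 CPM in double-positive barcodes, 12.8, 7.60 and 18.1 CPM in Sox2-only and 36.7, 39.4 and 103 CPM in Sox9-only barcodes. It was higher than in Sox2-only (1.19, SE 0.206, adjusted p = 0.0106) and lower than in Sox9-only barcodes (-1.08, SE 0.158, adjusted p = 0.000349). Mia, a secreted protein of distal epithelium, and Foxp2, a forkhead factor of distal epithelium, were also between. Mia had 172, 188 and 289 CPM, against 102, 131 and 151 CPM in Sox2-only and 358, 388 and 435 CPM in Sox9-only barcodes. Foxp2 had 279, 289 and 175 CPM, against 116, 111 and 128 CPM in Sox2-only and 450.2, 441 and 225 CPM in Sox9-only barcodes.

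Gata6, a zinc-finger factor of lung epithelium, was higher than in Sox2-only barcodes and did not pass against Sox9-only. It had 70.2, 76.4 and 52.4 CPM in double-positive barcodes, 36.8, 27.9 and 32.7 CPM in Sox2-only and 71.7, 68.7 and 68.5 CPM in Sox9-only barcodes. The difference from Sox2-only was 0.91 (SE 0.129, adjusted p = 0.00462), and that from Sox9-only was -0.24 (SE 0.109, adjusted p = 0.167). Tip genes that passed neither test were Id2 (0.30 and -0.09), the FGF receptor Fgfr2 (0.30 and -0.17), the ligand Shh (0.32 and -0.03), the FGF antagonist Spry2 (0.05 and -0.09) and the aspartic protease Napsa (0.79 and -0.96).

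Airway genes were higher than in Sox9-only barcodes, with 1 call against Sox2-only, a comparison that called few genes of any kind. Of 11 airway genes tested (Sox2 left out), 0 were higher and 1 lower than in Sox2-only barcodes. Their median was -0.33 where all genes had -0.01. Against Sox9-only barcodes 9 were higher and 0 lower, with a median of 1.5 where all genes had -0.02. Over all genes, 0.5% were higher and 0.379% lower than in Sox2-only, and 5.76% were higher than in Sox9-only barcodes. Without the deepest 10% of barcodes, 1 was lower than in Sox2-only and 8 were higher than in Sox9-only barcodes. Without Epcam+ Icam+ replicate 1, 5 of 11 were higher than in Sox9-only barcodes.

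Scgb3a2 had 462, 1613 and 147 CPM in double-positive barcodes, against 1145, 1589 and 431 CPM in Sox2-only and 25.4, 30.8 and 11.8 CPM in Sox9-only barcodes. It was the gene with the largest rise over Sox9-only barcodes among those named by the fixed rule (4.45, SE 0.270, adjusted p = 7.77e-08), and its difference from Sox2-only did not pass (-0.93, SE 0.236, adjusted p = 0.0864). These sums rested on few barcodes in the Epcam+ Icam+ libraries. A single barcode carried 77.1% and 42.7% of the Scgb3a2 UMIs there, against 9.22% in the Epcam+ library, and a Scgb3a2 UMI was found in 47.6%, 26.3% and 42.8% of double-positive barcodes. In macrophages that share was 4.51%, 3.56% and 0%.

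Cyp2f2, a cytochrome P450 of secretory cells, rested on single barcodes to a greater degree. It had 26.2, 25.2 and 3.4 CPM in double-positive barcodes, 23.3, 49.4 and 2.47 CPM in Sox2-only and 0.275, 0.489 and 0.0796 CPM in Sox9-only barcodes, and 1 barcode carried 94.1%, 80.7% and 26.7% of the double-positive UMIs. Aldh1a7, an aldehyde dehydrogenase, was spread over the class, with 8.15%, 14.51% and 1.64% of its UMIs in the top barcode. Its levels were 388, 369.6 and 296 CPM in double-positive, 443, 409.6 and 492 CPM in Sox2-only and 131, 131 and 102 CPM in Sox9-only barcodes. The rise over Sox9-only was 1.41 (SE 0.0999, adjusted p = 2.80e-07), and the difference from Sox2-only was -0.43 (SE 0.0999, adjusted p = 0.0584).

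Krt19, a keratin of simple epithelia, was the airway gene that differed from both classes. It had 837, 836 and 449 CPM in double-positive barcodes, 1103, 1292 and 638 CPM in Sox2-only and 581, 569.9 and 327 CPM in Sox9-only barcodes. The difference was -0.57 (SE 0.0868, adjusted p = 0.00599) from Sox2-only and 0.40 (SE 0.0858, adjusted p = 0.00651) from Sox9-only. Sox21, a Sox2-related factor of the airways, was low everywhere but higher than in Sox9-only barcodes, with 9.26, 8.12 and 9.63 CPM against 0.393, 0.408 and 0.657 CPM (4.03, SE 0.342, adjusted p = 1.67e-06).

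**Figure D3:**
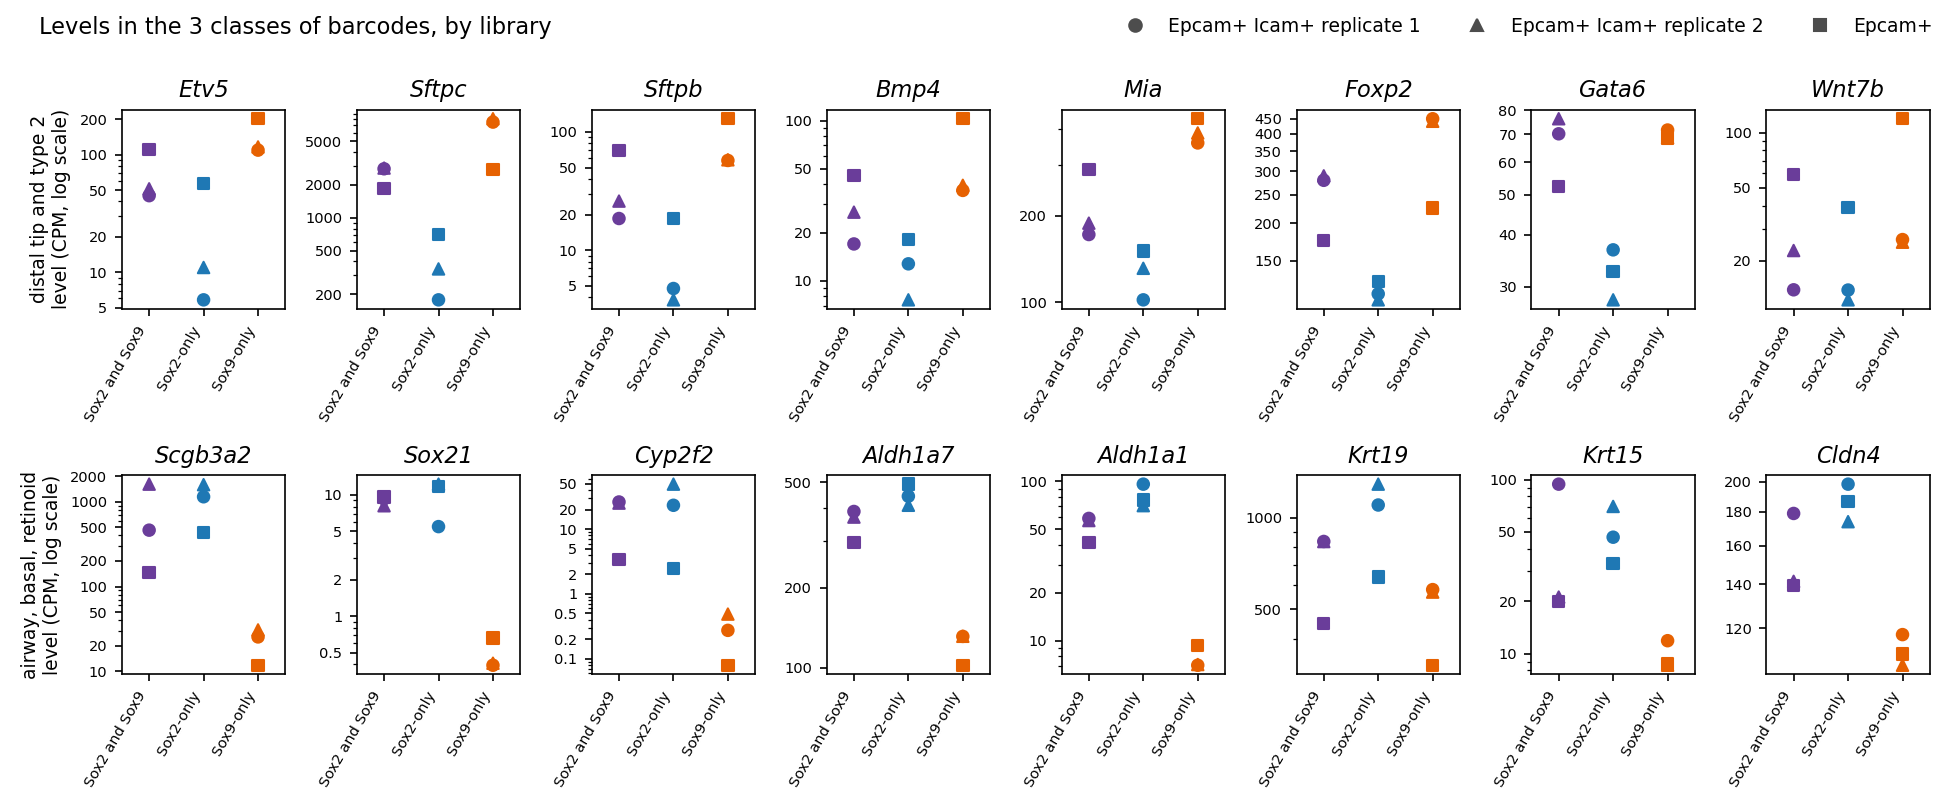
Level in CPM (log scale) of 8 distal tip and type 2 genes (top row) and 8 airway, basal and retinoid genes (bottom row) in the sums of double-positive, Sox2-only and Sox9-only barcodes; each point is 1 library. Etv5 of the double-positive class (44.8, 51.2 and 110.1 CPM) lies between the other classes in each library, and Aldh1a1 (58.7, 56.9 and 41.6 CPM) lies nearer to Sox2-only than to Sox9-only.

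Over many genes the double-positive sums lay between the other 2 classes. Genes that separated Sox2-only from Sox9-only by a log2 difference of at least 1 were chosen in 2 libraries and read in the third, where that gap was also required, and the position was taken as 0% at the Sox9-only and 100% at the Sox2-only level (pseudocount 5 CPM). Of 536, 447 and 489 chosen genes higher in Sox2-only, 195, 208 and 132 kept the gap in the library read. Of 263, 281 and 298 higher in Sox9-only, 101, 108 and 71 did. As the gap was required there, the counts between the classes are descriptions and not tests. Among genes higher in Sox2-only, 151 of 195, 147 of 208 and 131 of 132 lay between the classes, with median positions of 79.1%, 79.6% and 61.5%. Among genes higher in Sox9-only, 95 of 101, 98 of 108 and 71 of 71 lay between, with medians of 52.5%, 38.6% and 49.2%. The median position of the first set was above that of the second in 3 of 3 libraries. Without the deepest 10% of barcodes it was so in 2 of 3 libraries (93.1%, 51.1% and 67.6% against 76.6%, 56.3% and 56.9%). In that setting 96 of 165, 169 of 207 and 139 of 146 genes of the first set lay between the classes. Of the second set, 76 of 96, 85 of 100 and 81 of 81 did. In a sum, middle values of single barcodes and a mix of barcodes like either class cannot be told apart. The part of barcodes with 2 cells, or with a stray UMI of 1 of the genes, in these positions was not tested.

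**Figure D4:**
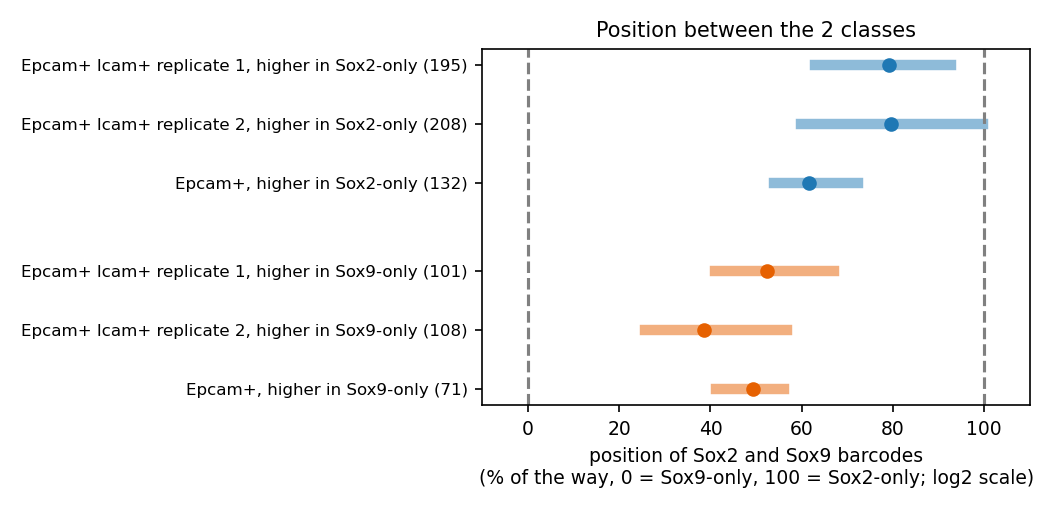
Position of the double-positive sums between the Sox9-only level (0%) and the Sox2-only level (100%) on the log2 scale; dots are medians over genes, bars run between the quartiles, and the number of genes is in parentheses. Genes higher in Sox2-only sit at medians of 79.1%, 79.6% and 61.5%, and genes higher in Sox9-only at 52.5%, 38.6% and 49.2%.

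Genes outside both classes were few. Only 6 of 11605 genes (0.0517%) passed against both classes in the same direction, and 107 (0.922%) had an unadjusted p under 0.05 in both. The 6, named because the count is small, were Cxcl2, Ccl6 and Gm26917, which were higher, and F3, Tnfrsf12a and AY036118, which were lower. Only Cxcl2 moved the same way against both classes in each library. In the Epcam+ library Gm26917 was below Sox2-only (726 against 744 CPM), and AY036118 was above Sox9-only (42.6 against 40.8 CPM). Cxcl2, a chemokine, had 593, 41.4 and 8.95 CPM in double-positive barcodes, 2.55, 7.60 and 4.52 CPM in Sox2-only and 14.4, 5.87 and 3.70 CPM in Sox9-only barcodes. A single barcode carried 99.4%, 98% and 79.8% of its double-positive UMIs. Ccl6, another chemokine, had 425, 0 and 8.38 CPM in double-positive barcodes, all of it from 1 barcode in Epcam+ Icam+ replicate 1. At least 10 UMIs of the macrophage list, counted without Lyz2, were held by 1, 1 and 5 double-positive barcodes. Without barcodes of this kind the difference of Cxcl2 was -0.93 from Sox2-only and -0.42 from Sox9-only. Leaving out Epcam+ Icam+ replicate 1 gave 0 genes outside both classes by edgeR (51 at an unadjusted p under 0.05), and leaving out the Epcam+ library gave 66.

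Macrophage transcripts of the class were concentrated in 1 barcode in the Epcam+ Icam+ libraries and spread in the Epcam+ library. Over the 12 genes of the macrophage list, C1q genes included, double-positive barcodes held 511, 63 and 516 UMIs, of which 1 barcode held 494, 36 and 68, and 31, 26 and 75 barcodes held none. The summed level was 3.92, 0.509 and 0.584 UMIs per 10000 in double-positive, 0.185, 1.12 and 0.612 in Sox2-only and 0.826, 0.343 and 0.542 in Sox9-only barcodes. F3, the tissue factor, had 302, 361 and 99.2 CPM in double-positive barcodes, 427, 413 and 134 CPM in Sox2-only and 357, 337 and 132 CPM in Sox9-only barcodes, so it was below both in 2 of 3 libraries. Tnfrsf12a, the TWEAK receptor, had 356, 349 and 242 CPM, against 546, 519 and 301 CPM in Sox2-only and 459.9, 457 and 233 CPM in Sox9-only barcodes, below both in the Epcam+ Icam+ libraries.

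The genes with the largest differences, by the rule for named genes, were of several kinds. Besides Cxcl2, Sftpc, Etv5, Bmp4 and Foxp2, the 10 largest rises over Sox2-only were Sftpb (surfactant protein B), Dlk1 (a membrane protein related to Notch ligands), Akap5 (a kinase anchor protein), Ppp1r14c (a phosphatase inhibitor) and Tspan8 (a tetraspanin). Dlk1 had 74.9, 88.6 and 422 CPM in double-positive barcodes, 14.9, 27.9 and 177 CPM in Sox2-only and 291, 345 and 824 CPM in Sox9-only barcodes. The largest falls were Fam107b (-1.20), the fatty acid receptor Ffar4 (-1.05), the proteoglycan Dcn (-0.95), the retinol carrier Rbp4 (-0.86), the Wnt pathway gene Frat2 (-0.83), Lypd2 (-0.81), Lmcd1 (-0.78), Gmds (-0.78), the syntaxin Stx19 (-0.77) and Aldh1a1 (-0.75).

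Against Sox9-only barcodes, the 10 largest rises after Scgb3a2 included Aldh1a1 (2.53), Ffar4 (2.19), the microtubule protein Map1b (2.04), the adhesion receptor Adgrg6 (1.93), Fam13a (1.91), Krt15 (1.84) and the matrix protein Hmcn1 (1.75). They also held Bcl2a1b (3.63), of whose double-positive UMIs 1 barcode carried 99.2%, 73.7% and 63.2%, and Cxcl2 (3.54). Aldh1a1, which makes retinoic acid, had 58.7, 56.9 and 41.6 CPM in double-positive barcodes, 96.2, 70.5 and 76.4 CPM in Sox2-only and 7.03, 7.10 and 9.36 CPM in Sox9-only barcodes. The 10 largest falls were Ankrd1 (-1.86), a target of YAP, Dlk1 (-1.70), Cym (-1.51), Sftpc (-1.39), Egfl6 (-1.39), Clu (-1.36), Tspan8 (-1.36) and the histone genes Hist1h2ab (-1.35), Hist1h1b (-1.35) and Hist1h3f (-1.30).

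Markers of differentiated lung cells divided in the same way, beside 0.5% of all genes higher than in Sox2-only and 6.26% lower than in Sox9-only. Of 10 genes of alveolar type 2 cells, 4 were higher than in Sox2-only and 7 lower than in Sox9-only barcodes. Sftpb had 18.5, 26.0 and 70.0 CPM in double-positive barcodes, 4.74, 3.80 and 18.5 CPM in Sox2-only and 57.4, 58.1 and 129 CPM in Sox9-only barcodes. Without the deepest 10% of barcodes the count against Sox2-only was 1 of 10, and after thinning it was 0 of 8, with 2 of 8 lower than in Sox9-only. Of 9 genes of alveolar type 1 cells, 1 (Akap5) was higher than in Sox2-only and 5 were lower than in Sox9-only barcodes, Ager and Hopx among the 5.

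Markers of ciliated and basal cells gave calls against Sox9-only barcodes and no call against Sox2-only. Over all genes, 5.76% were higher than in Sox9-only and 0.879% passed against Sox2-only. Of 9 ciliated cell genes, 4 (Foxj1, Deup1, Mcidas and Ccno) were higher than in Sox9-only and 0 passed against Sox2-only. A single barcode carried 58.7%, 76.9% and 9.52% of the Foxj1 UMIs of double-positive barcodes, and Deup1 had 22, 8 and 1 UMIs in all. After thinning 0 of 4 ciliated genes passed, and without Epcam+ Icam+ replicate 1, 2 of 9. Both basal cell genes tested, Krt15 and Dapl1, passed as higher than in Sox9-only barcodes and 0 passed against Sox2-only. A single barcode carried 75.4% of the Krt15 UMIs in Epcam+ Icam+ replicate 1. Dapl1 had 1.54, 4.06 and 9.17 CPM in double-positive barcodes, against 2.28, 2.12 and 2.33 CPM in Sox9-only, so it was lower in the first library, and its difference was -0.69 after thinning. The basal genes Trp63 and Krt5 were too low to be tested.

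Of 20 S phase genes, 14 were lower than in Sox9-only barcodes, where 6.26% of all genes were, with a median of -0.42. Against Sox2-only 0 of 20 passed, which with 0.879% of all genes called sets no list of this size apart. Rrm2, a subunit of ribonucleotide reductase, had 32.4, 35.7 and 111 CPM in double-positive barcodes, 35.4, 35.1 and 105 CPM in Sox2-only and 66.7, 63.8 and 169 CPM in Sox9-only barcodes. Of 20 genes of G2 and mitosis, 0 passed against Sox2-only and 12 were lower than in Sox9-only barcodes, with a median of -0.45. Of 16 genes of MYC and ribosome biogenesis, 0 passed against Sox2-only, and 6 were lower and 1, Myc itself, was higher than in Sox9-only barcodes. With classes formed after thinning every barcode to 5000 UMIs, 0 of the 20 S phase genes and 2 of the 20 genes of G2 and mitosis were lower than in Sox9-only barcodes. Leaving out Epcam+ Icam+ replicate 1, Epcam+ Icam+ replicate 2 or the Epcam+ library gave 5, 8 and 9 S phase genes and 2, 8 and 13 genes of G2 and mitosis, and without the first of these 0 genes of MYC and ribosome biogenesis passed.

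Signalling genes gave smaller counts. Over all genes, 0.879% passed against Sox2-only, and 5.76% were higher and 6.26% lower than in Sox9-only barcodes. A count of 0 against Sox2-only thus sets no list of this size apart. The counts of Hedgehog and of Hippo and YAP genes against Sox9-only are likewise not read as results about those lists. Of 12 genes of FGF signalling and ERK feedback, 2 (Etv5 and Phlda1) were higher than in Sox2-only. Against Sox9-only, 4 (Etv4, Etv5, Dusp6 and Phlda1) were lower and 1 (Egr1) was higher. Of 12 Wnt pathway genes, 0 passed against Sox2-only (median 0.47), and against Sox9-only 4 (Wnt7b, Sp5, Nkd1 and Tcf7) were lower and Lgr5 was higher. Of 12 BMP and TGF-beta genes, Bmp4 and Tgfb2 were higher than in Sox2-only, and Bmp4, Tgfb2 and Tgfbi were lower than in Sox9-only. Notch1 was the 1 of 10 Notch genes higher than in Sox2-only, and it was also the 1 lower than in Sox9-only, whereas Notch3, Jag1, Dll4 and Hes1 were higher than in Sox9-only. Of 7 retinoid genes, Aldh1a1 was lower than in Sox2-only. Aldh1a1, the receptor Rarb (1.82) and Crabp2 were higher than in Sox9-only. Hedgehog genes (5) and Hippo and YAP genes (10) gave 0 calls against Sox2-only. Against Sox9-only Hedgehog genes gave 1 higher (Hhip), and Hippo and YAP genes 1 higher and 1 lower. With either Epcam+ Icam+ replicate left out, 0 Notch genes passed in either comparison, and with any library left out Aldh1a1 did not pass against Sox2-only. After thinning, 0 genes of the Notch, Wnt, BMP and TGF-beta lists passed in either comparison.

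The remaining lists stand beside 0.879% of all genes passing against Sox2-only, and 5.76% higher and 6.26% lower against Sox9-only. Counts of 0 against Sox2-only, and the tight junction and claudin counts, are not read as results about a list. Immediate early genes gave 0 of 14 against Sox2-only, and 6 higher and 1 lower against Sox9-only. Fos had 237, 298 and 244 CPM in double-positive barcodes, 186, 209 and 338 CPM in Sox2-only and 90.5, 85.9 and 172 CPM in Sox9-only barcodes. Genes of dissociation stress gave 0 of 12 against Sox2-only, and 3 higher and 1 lower against Sox9-only. Keratins gave 2 lower of 7 (Krt8 and Krt19) and 2 higher of 7. Pan-epithelial genes gave 1 lower (Krt8) and 1 higher (Cdh1) of 9, tight junction and claudin genes 0 and then 1 higher and 1 lower of 14, other Sox genes 0 and then 2 higher (Sox5 and Sox21) of 7, and glycolysis and hypoxia genes 0 and 0 of 15. Nkx2-1 (0.16 and -0.27, adjusted p = 0.684 and 0.0915) and Icam1 (-0.07 and -0.03, adjusted p = 0.879 and 0.865) passed against neither class.

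Of the markers of other tissues, macrophage genes gave 0 of 7 in both comparisons. With 0.879% of all genes called against Sox2-only and 12% against Sox9-only, 0 sets no list of this size apart. All 4 globin genes tested were lower than in Sox9-only and 0 passed against Sox2-only. Without the deepest 10% of barcodes 0 of 4 passed against Sox9-only, after thinning 0 of 4 passed with a median of 0.57, and with at least 2 UMIs of each Sox gene all 4 differences were positive. Hbb-bs had 0.772, 2.44 and 20.7 CPM in double-positive barcodes, against 2.04, 64.2 and 76.2 CPM in Sox9-only barcodes. Mast cell and basophil genes gave 2 lower of 5 against Sox9-only, and the single tested gene of the endothelium (Esam) gave 0. Dcn, the single mesenchymal gene tested, was lower than in Sox2-only (-0.95) and higher than in Sox9-only barcodes (3.53, SE 0.211, adjusted p = 7.77e-08). It stood at 17.8, 21.9 and 9.29 CPM in double-positive, 35.4, 43.1 and 16 CPM in Sox2-only and 1.73, 1.51 and 0.737 CPM in Sox9-only barcodes, while the collagen genes Col1a1, Col1a2 and Col3a1 were too low to be tested.

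The double-positive barcodes also varied among themselves. Scgb3a2 and Etv5 UMIs were found together in 7, 4 and 86 of them, Scgb3a2 without Etv5 in 13, 6 and 6, Etv5 without Scgb3a2 in 6, 12 and 93, and neither in 16, 16 and 30. Thinned to 5000 UMIs, both were kept in 3.68%, 1.4% and 7.37% of double-positive barcodes. The thinned share was 0.5%, 0.792% and 4.35% in Sox2-only and 0.379%, 0.230% and 1.4% in Sox9-only barcodes. Etv5 UMIs remained in 9.88%, 7.88% and 15.7% of macrophages thinned in the same way, and their source was not tested. No order of the classes is read from the shares above.

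Splitting the class by which gene had more UMIs gave 17, 10 and 84 barcodes with more Sox2 and 8, 13 and 76 with more Sox9. The sums differed in 57 of 5717 genes (0.997%), 27 higher (0.472%) and 30 lower (0.525%) with more Sox2, among them Sox2 and Sox9, which made the split. Sftpc had 997, 693 and 1096 CPM in barcodes with more Sox2, against 7337, 4368 and 2716 CPM in those with more Sox9 (-2.31, SE 0.220, adjusted p = 0.000196). Etv5 had 21.4, 19.1 and 82.5 CPM with more Sox2, against 109.9, 58.4 and 136 CPM with more Sox9 (-1.17, SE 0.240, adjusted p = 0.0362). Aldh1a1 went the other way, with 91.4, 120.0 and 64.7 CPM with more Sox2 and 20.0, 16.3 and 20.5 CPM with more Sox9 (1.89, SE 0.219, adjusted p = 0.00105). For Sftpc and Aldh1a1 the values of the 2 groups did not overlap, and for Etv5 they overlapped across libraries but differed the same way within each. In Epcam+ Icam+ replicate 1 a single barcode carried 42.6% of the Sftpc UMIs of all double-positive barcodes. Median depth was 21636, 33641.5 and 34940 UMIs with more Sox2 and 40643, 27112 and 48048.5 UMIs with more Sox9. The part of depth in these differences was not tested.

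Of 11 tip genes tested in this split, 0 were higher and 4 (Sftpc, Etv5, Mia and Foxp2) lower with more Sox2, and of 6 airway genes, 2 (Krt19 and Aldh1a7) were higher and 0 lower. Krt19 had 1170.3, 1192 and 517 CPM with more Sox2 and 509, 551 and 378 CPM with more Sox9. Egr1 was higher and Phlda1 lower with more Sox2, at log2 differences of 0.98 and -1.05. Cell cycle genes gave 0 calls of 17 (S phase) and 0 of 20 (G2 and mitosis). With 0.997% of all genes called in this split, 0 sets neither list apart. Without the deepest 10% of barcodes, 2 genes passed in place of 57.

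**Figure D5:**
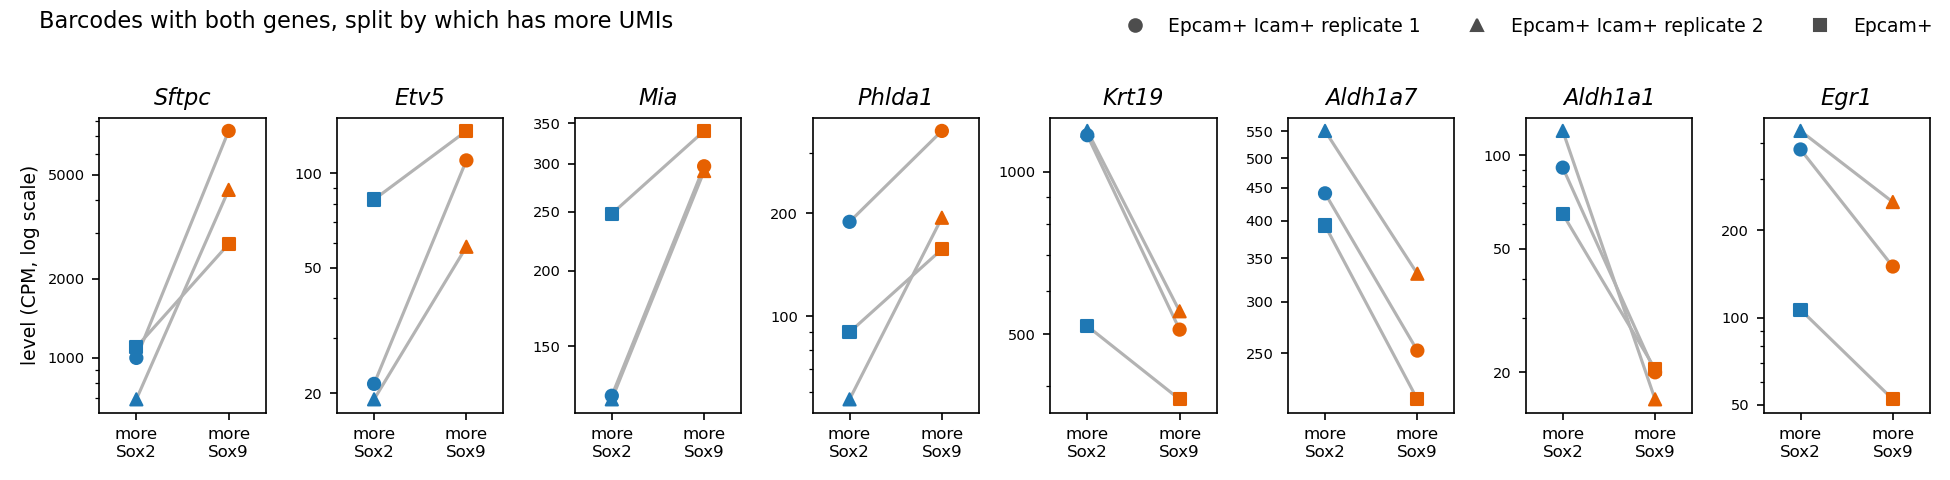
Level in CPM (log scale) of 8 genes in double-positive barcodes with more Sox2 than Sox9 UMIs and in those with more Sox9 than Sox2 UMIs; lines join the 2 sums of a library. Sftpc, Etv5, Mia and Phlda1 are lower, and Krt19, Aldh1a7, Aldh1a1 and Egr1 higher, with more Sox2 in each of the 3 libraries.

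Double-positive barcodes of the Epcam+ Icam+ libraries differed from those of the Epcam+ library in 5380 of 9435 genes (57%), 2533 higher (26.8%) and 2847 lower (30.2%), with 1 residual degree of freedom. With 1 Epcam+ library processed in another way, this difference cannot be assigned to the sort. Icam1 itself did not pass (188 and 214 CPM against 159 CPM, log2 difference 0.06, SE 0.134, adjusted p = 0.733). In an interaction fit with 2 residual degrees of freedom, the difference from Sox2-only was not the same in the Epcam+ library as in the Epcam+ Icam+ libraries in 6 genes (0.0517%), 3 with the more positive difference in the Epcam+ Icam+ libraries (0.0259%) and 3 with the more negative one (0.0259%). For the difference from Sox9-only this held for 61 genes (0.526%), 14 with the more positive difference in the Epcam+ Icam+ libraries (0.121%) and 47 with the more negative one (0.405%). DESeq2 gave 211 and 139 genes, and without the deepest 10% of barcodes edgeR gave 1 and 4.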

How the data were processed

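Single cells of E14.5 mouse lung were measured in 3 libraries, grouped by the sort named in the labels: Epcam+ Icam+ (replicates 1 and 2) and Epcam+ (1 library). The deposited values are raw UMI counts per gene and barcode, which the authors made with Cell Ranger. The submitters' processing notes name version 2.1.1 and mm10, whereas the file headers name 5.0.1 for the Epcam+ Icam+ libraries and 3.0.2 for the Epcam+ library, and the deposited gene tables hold 32285, 32285 and 31053 genes. Matrices were joined on the 30406 shared Ensembl identifiers. The lowest deposited barcode had 500 UMIs.

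Barcodes were filtered as given with the results, and doublets were scored with Scrublet in scanpy 1.11.5 (Python 3.11.15). Equal-depth shares are exact hypergeometric expectations at 5000 UMIs. UMIs were summed per class and library, giving 9 sums, filtered with filterByExpr, scaled by TMM and tested with edgeR 4.0.16 in R 4.3.3 (quasi-likelihood, library as a block, 4 residual degrees of freedom, adjusted p threshold 0.05). The SE of a log2 fold change is its size over the square root of F. All 3 classes shared 1 estimate of spread. The split by the gene with more UMIs left out ties. Intervals and floors (3 counts) cover counting error only. The test code was tried on simulated data.

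Named genes were the 10 largest log2 fold changes in each direction among called genes that averaged 20 CPM or more over the sums and moved 1 way in all 3 libraries, without gene models and globin, ribosomal and mitochondrial genes, plus genes of the lists, Icam1 and Nkx2-1. Members and lists were chosen with earlier results of these data known. Alternatives were RLE scaling, no count filter, DESeq2 1.42.0, no block, each library left out, Scrublet removal, removal of the deepest 10%, no C1q UMI, other UMI and Epcam minimums, thinning and a class of barcodes with neither gene. Equal numbers of barcodes and fewer than 10 UMIs of the macrophage list (counted without Lyz2) were added after seeing the data. Classes within a library share that library, which is where their pairing comes from. A few genes of the lists are not reported here.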

Additional observations from a re-analysis of the deposited data

Results flagged for a closer look

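The difference of double-positive barcodes from Sox2-only barcodes differed between the Epcam+ Icam+ libraries and the Epcam+ library in 6 genes, and the difference from Sox9-only barcodes in 61 genes, by the interaction term of edgeR's quasi-likelihood test with Benjamini-Hochberg adjustment. With a single Epcam+ library, sort, library, gene table and software version cannot be told apart. Values below are the log2 difference in the Epcam+ Icam+ libraries minus that in the Epcam+ library.

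Against Sox2-only, Sftpc gave 1.90 (SE 0.236, adjusted p = 0.00839), as double-positive barcodes held 2812 and 2854 CPM against 178 and 342 CPM in the Epcam+ Icam+ libraries, and 1862 against 703 CPM in the Epcam+ library. The globin genes Hbb-bs (-4.69, SE 0.506, adjusted p = 0.00711) and Hba-a1 (-5.66, SE 0.682, adjusted p = 0.00782) gave the other sign. Hba-a1 had 0.772, 0.812 and 7.02 CPM in double-positive barcodes, and 2.55, 91.2 and 9.04 CPM in Sox2-only barcodes.

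Against Sox9-only, the difference was lower in the Epcam+ Icam+ libraries for Cym (-1.47, SE 0.186, adjusted p = 0.00409), Dlk1 (-1.08, SE 0.140, adjusted p = 0.00411), Hist1h1b (-1.32, SE 0.222, adjusted p = 0.0201), Clu (-0.81, SE 0.145, adjusted p = 0.0271) and Ager (-0.77, SE 0.129, adjusted p = 0.0201). It was higher for the immediate early genes Fos (1.00, SE 0.128, adjusted p = 0.00409) and Dusp1 (0.82, SE 0.135, adjusted p = 0.0201).

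Outside the barcodes described, 19, 13 and 8 barcodes held Sox2, Sox9, at least 3 Epcam UMIs and at least 10 C1q UMIs, and were left out by the C1q limit.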

How the results depend on the processing

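The count against Sox2-only (102) became 308 with no filter on low counts, 67 without the highest Scrublet scores, 18 without the deepest 10% and 4 with classes formed after thinning, and 40 to 207 with a library left out. That against Sox9-only (1394) became 2309 with no filter, 127 after thinning, 505 with at least 2 UMIs of each gene, 538 with equal numbers of barcodes and 543 to 1952 with a library left out. Genes outside both classes (6) became 39 with no filter, 3 by DESeq2, 2 without the deepest 10%, 3 with no C1q UMI, 1 with at least 2 UMIs of each gene, 2 with equal numbers and 0 to 66 with a library left out. By edgeR they were 0 without the highest Scrublet scores and 0 after thinning, where 105 and 130 had an unadjusted p under 0.05, and DESeq2 was not run there. The split by the gene with more UMIs (57) became 208 with no filter, 31 by DESeq2, 2 without the deepest 10% and 59 to 149 with a library left out. The sort difference (5380) became 3458 with no filter, 2133 by DESeq2 and 3199 without the deepest 10%. The sort interactions (6 and 61) became 333 and 319 with no filter, 211 and 139 by DESeq2, 1 and 4 without the deepest 10%, and the second 140 without the highest Scrublet scores. Leaving out a library from the sort fits left no residual degrees of freedom, so these were not tested. The cause of these changes was not tested.

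Without the library as a replicate block, edgeR gave 1 gene against Sox2-only, 26 against Sox9-only, 0 outside both (11 at an unadjusted p under 0.05) and 0 in the split (56). This block pairs the classes within each of the 3 libraries. Between the sorts no pairing could be made, because the single Epcam+ library shares fewer than 2 replicate numbers with the Epcam+ Icam+ libraries.

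The share of double-positive barcodes became 0.364%, 0.462% and 2.96% with at least 2 UMIs of each gene and 0.306%, 0.233% and 0.860% after thinning. In the Epcam+ library it was 6.22% without the deepest 10% and 7.18% with no C1q UMI. The ratio to expectation in bins of depth was 0.512 in Epcam+ Icam+ replicate 2 and 0.771 in the Epcam+ library.

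Single genes that changed sign were Cxcl2 (-1.38 against Sox2-only and -1.12 against Sox9-only without the deepest 10%, -0.93 and -0.42 under 10 macrophage UMIs), Bcl2a1b (-0.60 against Sox9-only without the deepest 10%) and, after thinning, Lypd2 against Sox2-only (0.0919) and, against Sox9-only, Dapl1 (-0.69), Hopx (0.0606), Hbb-bt (0.28), Hbb-bs (0.88), Hba-a2 (0.85), Hist1h3f (0.0175), Myc (-0.31), Hes1 (-0.0744) and Ier3 (0.0389). With at least 2 UMIs of each gene, Hbb-bt (0.30), Hbb-bs (0.35), Hba-a1 (0.0832) and Hba-a2 (0.0839) changed sign against Sox9-only. Icam1, which was not called, was 0.101 and 0.0572 against Sox2-only (at least 2 UMIs, equal numbers) and against Sox9-only 0.0084, 0.0077 and 0.0211 (at least 2 UMIs, equal numbers, without the deepest 10%), and with a library left out it ran between -0.0702 and 0.0102. Of 29 named genes called or listed against Sox2-only, 7 kept their call and direction without the deepest 10%, and of 118 against Sox9-only, 89 did.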
